A study of Arabidopsis thaliana with 12 samples.

Results

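The 38 genes described here encode parts of the nuclear RNA polymerases, of the Mediator complex and of chromatin in Arabidopsis thaliana. Members are genes whose symbol starts with NRPA, NRPB, NRPC, NRPD, NRPE, MED, TAF, CHR, HDA, HAC, HTA, HTB, SDG or SUVH followed by a digit. Of 16550 genes with a feature annotated to 1 gene, 38 met that rule, and they came from 9 of the 14 prefixes. No TAF, HAC, HTA, SDG or SUVH symbol was found among the features annotated to 1 gene, and these families were not analysed here. Features annotated to several genes were not searched. Each of the 38 genes had 1 feature, and no member's values were copied in another feature.

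RNA was measured on 12 one-colour arrays from roots and shoots of seedlings with an estradiol-inducible transgene for CLE3, a small secreted signalling peptide. The 4 groups were roots from estradiol-treated plants, roots from DMSO-treated plants, and shoots from plants given estradiol or DMSO, and every group carried the transgene. Roots of 7 day old seedlings received estradiol (5 mM as the labels give it, not checked here) or the solvent DMSO for 24 h, after which roots and shoots were collected apart. The sources used here name neither the promoter of the construct nor the number of lines or any pooling of plants. They do not say whether replicates were grown separately, so the spread behind each p-value is that between arrays and may be technical.

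Each group had 3 arrays, of which the array labelled root DMSO replicate 3 and the array labelled shoot estradiol replicate 3 were left out because their whole profile lay with the other organ. The mean log2 level of 6 root marker genes was 10.08 to 10.18 on the other 5 root arrays and 5.72 to 6.18 on the other 5 shoot arrays. It was 5.95 on the array labelled root DMSO replicate 3 and 10.17 on the array labelled shoot estradiol replicate 3. The 6 shoot marker genes had a mean log2 level of 5.67 to 6.34 on the 5 root arrays and 9.80 to 9.92 on the 5 shoot arrays, with 9.87 and 6.22 on those 2 arrays. The root markers were BGLU21, BGLU22, PYK10, NAI2, EXPA7 and EXPA18, and the shoot markers SBPASE, PRK, RCA, LHCB4.1, SPCH and FMA. All 12 marker genes passed the organ test below in the direction of their list. The lists were chosen with earlier results of these data known, and the test used only the arrays kept. Their passing is therefore no separate support for the organ labels. Results are from the 10 arrays (roots: 3 with estradiol and 2 with DMSO, shoots: 2 and 3) unless 12 arrays are named.

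Nuclear RNA polymerases share a core of small subunits and differ in their large ones. Polymerase I makes the large ribosomal RNA precursor, polymerase II makes messenger RNA, polymerase III makes transfer RNA and 5S ribosomal RNA, and the plant-specific polymerases IV and V make the RNA that directs DNA methylation and gene silencing. Mediator links transcription factors to polymerase II, while SNF2-type remodellers (CHR), histone deacetylases (HDA) and core histones such as H2B (HTB) set how DNA is packed.

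All levels are log2 values of 1 feature per gene, and differences are log2 differences. Levels of different genes come from different probes and were not ranked. Array quartiles place them: the lower quartile of all features was 2.92 to 3.12 on the 12 arrays, the median 4.99 to 5.09 and the upper quartile 7.00 to 7.11. Of the 38 genes, 13 had a mean log2 level over 7 and 27 a mean of at least 5. At the dim end 9 had a mean under 4, and CHR34, HDA7 and NRPD7 had means under 3.12, the highest of the arrays' lower quartiles.

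The organs differed modestly in this machinery. With the treatments weighted equally, 4 of 38 genes (10.5%) were higher in roots, against 24% of all 38408 features, and 13 (34.2%) were lower in roots, against 26.1% of all features (limma, adjusted p under 0.05). Differences were small: the median size was 0.28 on the log2 scale for the 38 genes and 0.41 for all features. Only 1 of the 38 genes (2.63%), the histone gene HTB2, differed by more than 1 log2 unit, against 21.8% of all features. The median signed difference was -0.18 for the 38 genes and -0.10 for all features. Every root array lay above every shoot array for 4 genes (10.5%, against 21.1% of features) and below every shoot array for 6 (15.8%, against 20.2% of features). These are whole organs, in which fewer cells of a type and less RNA per cell cannot be told apart. On 12 arrays 0 of 38 genes passed (limma; 8 had an unadjusted p under 0.05), and 36 of 38 had the same sign as on 10 arrays.

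**Figure D1:**
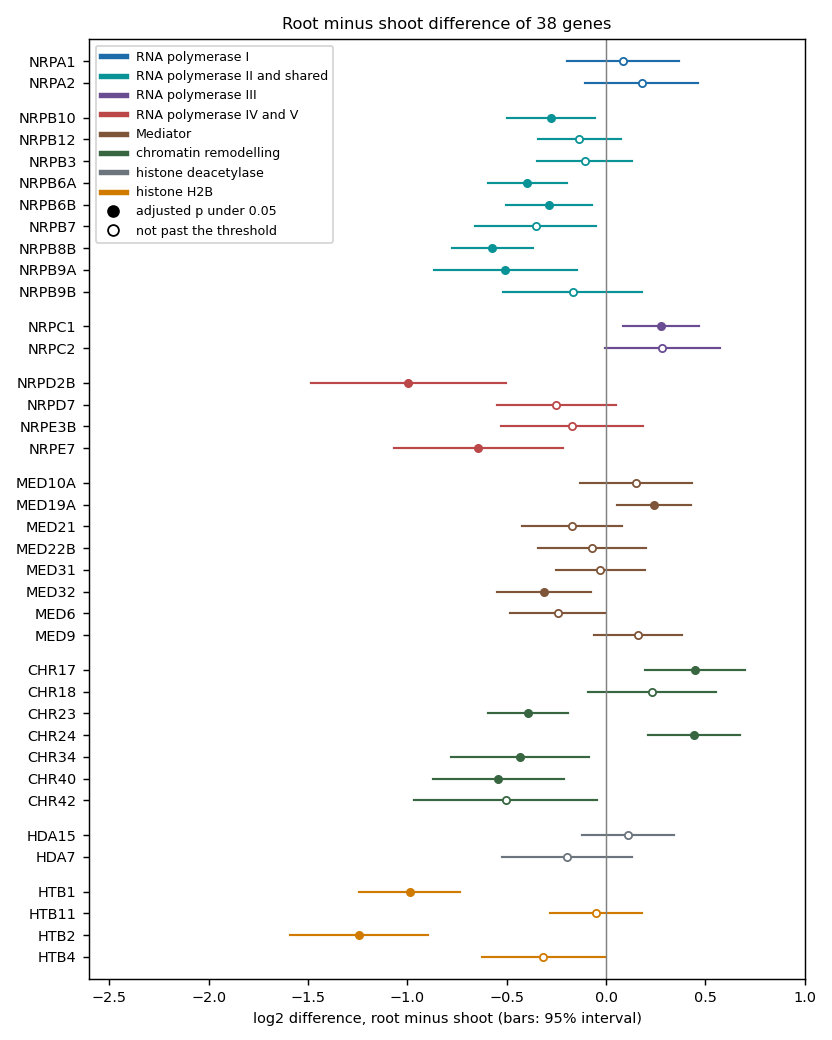
Root minus shoot difference of each gene on the log2 scale (horizontal axis), one row per gene grouped by family, from 10 arrays. Points are limma estimates, bars their 95% intervals, and filled points passed an adjusted p of 0.05. All 9 genes of the polymerase II and shared group and all 4 of polymerases IV and V lie left of 0, all 4 of polymerases I and III lie right of 0, and HTB2 and HTB1 are farthest left with NRPD2B.

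Polymerase I was represented by NRPA1 and NRPA2, the largest and second-largest subunits. NRPA1 had log2 levels of 7.88, 7.73 and 7.55 in roots with estradiol and 7.54 and 7.67 in roots with DMSO, against 7.76 and 7.50 in shoots with estradiol and 7.70, 7.24 and 7.63 in shoots with DMSO. Roots and shoots overlapped, and the difference of 0.09 (SE 0.12) had a 95% interval of -0.20 to 0.37. NRPA2 had a difference of 0.18 (SE 0.12) with an interval of -0.10 to 0.46. Neither passed (limma adjusted p 0.602 and 0.264), and a difference of more than 1 log2 unit lies outside both intervals.

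Polymerase III was represented by its largest subunits NRPC1 and NRPC2, and NRPC1 was higher in roots. NRPC1 had log2 levels of 7.56, 7.46 and 7.45 in roots with estradiol and 7.38 and 7.51 in roots with DMSO, against 7.28 and 7.10 in shoots with estradiol and 7.21, 7.10 and 7.25 in shoots with DMSO. Every root array was above every shoot array, by a mean difference of 0.28 (SE 0.08, limma adjusted p 0.0218), a root level 1.21 times the shoot level. NRPC2 had a difference of the same size, 0.28 (SE 0.13), but its shoot arrays ranged from 6.48 to 7.05 and overlapped the root arrays at 6.97 to 7.23, and it did not pass (limma adjusted p 0.0967). The NRPC1 call was lost without root DMSO replicate 2 or without shoot estradiol replicate 2 (limma adjusted p up to 0.0852). On 12 arrays the differences of NRPC1 and NRPC2 were both 0.16 and those of NRPA1 and NRPA2 both between 0.11 and 0.12, with none past the threshold.

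Polymerase II and shared subunits had lower means in roots. All 9 measured genes had negative differences, of -0.57 to -0.11 with a median of -0.29, where 21904 of 38408 features were negative with a median of -0.10. Of the 9, 5 passed (55.6%), all lower in roots, against 26.1% of all features lower and 50.1% called in either direction. NRPB8B, a copy of the eighth subunit that polymerases share, showed the widest gap. Its log2 levels were 8.37, 8.33 and 8.07 in roots with estradiol and 8.28 and 8.25 in roots with DMSO, against 8.91 and 8.78 in shoots with estradiol and 8.82, 8.88 and 8.78 in shoots with DMSO. No root array reached a shoot array. The difference was -0.57 (SE 0.09, limma adjusted p 0.000624), a root level 0.672 times the shoot level.

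NRPB6A and NRPB6B encode copies of the sixth shared subunit, and both were lower in roots. NRPB6A had log2 levels of 6.36, 6.47 and 6.55 in roots with estradiol and 6.45 and 6.33 in roots with DMSO, against 6.94 and 6.98 in shoots with estradiol and 6.61, 6.83 and 6.62 in shoots with DMSO. The organs did not overlap, and the difference was -0.40 (SE 0.09, limma adjusted p 0.00461). NRPB6B had -0.29 (SE 0.10, limma adjusted p 0.0339) with 1 root DMSO array, at 7.10, inside the shoot range of 7.07 to 7.33. Copies as alike as these could share probe signal, which was not tested.

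The remaining called genes of this group were NRPB9A, a copy of the ninth subunit, and NRPB10, a small shared subunit. NRPB9A had log2 levels of 3.24 to 4.29 in roots and 4.003 to 4.482 in shoots, and a difference of -0.51 (SE 0.16, limma adjusted p 0.0254). NRPB10 had 6.54 to 6.83 in roots and 6.81 to 7.04 in shoots, and a difference of -0.28 (SE 0.10, limma adjusted p 0.0401). The ranges of both genes overlapped between organs. Their calls, and that of NRPB6B, were not stable, and those of NRPB10 and NRPB6B were also lost after quantile normalization. NRPB10 was lost without any one of 8 arrays (all but root estradiol replicate 1 and shoot DMSO replicate 3) at limma adjusted p up to 0.109. NRPB6B was lost without any one of 6 arrays (root estradiol replicates 1 and 2, root DMSO replicate 2, shoot estradiol replicate 2, shoot DMSO replicates 1 and 3) at up to 0.135, and NRPB9A without any one of 4 (root DMSO replicate 1, both shoot estradiol replicates, shoot DMSO replicate 2) at up to 0.104.

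The other members of the group did not pass. NRPB7, part of the stalk of polymerase II, had -0.36 (SE 0.13, limma adjusted p 0.0527), and it passed in 8 of 18 alternatives, among them those without root estradiol replicate 1, shoot estradiol replicate 1 or shoot DMSO replicate 2. NRPB12, a small shared subunit, had -0.13 (SE 0.09), NRPB3, a core subunit, -0.11 (SE 0.10), and NRPB9B, the other copy of the ninth subunit, -0.17 (SE 0.15). All 9 differences stayed below 0 in each of 18 alternatives on the 10 arrays in which a gene was fitted, and on 12 arrays, where they ran from -0.38 to -0.05 with the smallest adjusted p at 0.0845.

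Polymerases IV and V were represented by 4 genes, all with lower means in roots, as had 21904 of 38408 features. Of the 4, 2 passed (50%), both lower in roots, against 26.1% of all features lower and 50.1% called in either direction. NRPD2B, a close relative of the gene for the second-largest subunit of both enzymes, had log2 levels of 3.28, 3.72 and 2.61 in roots with estradiol and 3.67 and 3.13 in roots with DMSO, against 4.24 and 4.57 in shoots with estradiol and 4.13, 4.31 and 4.14 in shoots with DMSO. Every root array lay below every shoot array, and root arrays spread more widely (SD 0.45, n = 5) than shoot arrays (SD 0.18, n = 5). The difference of -0.996 (SE 0.22, limma adjusted p 0.00418) is a root level 0.501 times the shoot level, close to the dim end of the arrays in roots.

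NRPE7, the stalk subunit of polymerase V, had log2 levels of 5.25, 5.36 and 4.74 in roots with estradiol and 5.47 and 5.04 in roots with DMSO, against 5.77 and 5.95 in shoots with estradiol and 6.17, 5.82 and 5.40 in shoots with DMSO. Shoot DMSO replicate 3, at 5.40, fell among the root arrays. The difference was -0.64 (SE 0.19, limma adjusted p 0.0191), and NRPE7 no longer passed without root DMSO replicate 2 or shoot estradiol replicate 2 (limma adjusted p up to 0.0777). NRPD7, a stalk subunit of polymerase IV, had -0.25 (SE 0.13), and NRPE3B, the polymerase V relative of NRPB3, -0.17 (SE 0.16), and neither passed. Both were dim, with log2 levels of 2.103 to 2.972 and 2.842 to 3.786 on the 10 arrays. On 12 arrays the 4 differences ran from -0.64 to -0.12 and none passed (smallest limma adjusted p 0.140).

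Mediator was close to even between the organs. Of 8 measured subunits 1 was higher in roots, 1 was lower and 6 did not pass (25% called, against 50.1% of all features), with a median difference of -0.05. MED19A, a Mediator subunit, had log2 levels of 9.48, 9.53 and 9.53 in roots with estradiol and 9.62 and 9.43 in roots with DMSO, against 9.15 and 9.31 in shoots with estradiol and 9.29, 9.40 and 9.30 in shoots with DMSO. Its arrays separated by organ with a small difference of 0.24 (SE 0.08, limma adjusted p 0.0348). MED32, a plant tail subunit, had 5.53 to 5.88 in roots and 5.84 to 6.26 in shoots, and a difference of -0.31 (SE 0.10, limma adjusted p 0.0343).

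Both Mediator calls were among the least stable. MED19A was lost without any one of 7 arrays (all but root DMSO replicate 2, shoot estradiol replicate 2 and shoot DMSO replicate 2) and with a replicate block, at limma adjusted p up to 0.137. MED32 was lost without any one of 7 arrays (all but root estradiol replicate 1, shoot estradiol replicate 1 and shoot DMSO replicate 3), at up to 0.123. The head subunit MED6 had -0.24 (SE 0.10, limma adjusted p 0.0837) and the head subunit MED22B -0.07 (SE 0.12). The middle subunits MED9, MED10A, MED21 and MED31 had 0.16 (SE 0.10), 0.15 (SE 0.12), -0.17 (SE 0.11) and -0.03 (SE 0.10). All 8 intervals of Mediator genes lay within 1 log2 unit of 0.

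Chromatin remodelling ATPases were called in both directions. Of 7 measured genes 2 were higher in roots (28.6%, against 24% of all features), 3 were lower (42.9%, against 26.1%) and 2 did not pass. CHR17, an ATPase of the ISWI type that spaces nucleosomes, had log2 levels of 6.80, 6.61 and 6.43 in roots with estradiol and 6.33 and 6.38 in roots with DMSO, against 6.15 and 5.82 in shoots with estradiol and 6.19, 5.97 and 6.12 in shoots with DMSO. CHR24, annotated as a relative of the repair factor ERCC6, had 7.32, 7.39 and 7.22 in roots with estradiol and 7.46 and 7.30 in roots with DMSO, against 6.71 and 6.98 in shoots with estradiol and 6.78, 7.04 and 7.06 in shoots with DMSO. For both genes the lowest root array was above the highest shoot array. The differences were 0.45 (SE 0.11, limma adjusted p 0.00838) for CHR17 and 0.44 (SE 0.10, limma adjusted p 0.00576) for CHR24, and both are root levels 1.36 times the shoot level.

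CHR23, a SWI/SNF-type ATPase also known as MINU2, was lower in roots. Its log2 levels were 5.69, 5.53 and 5.57 in roots with estradiol and 5.81 and 5.55 in roots with DMSO, against 5.87 and 5.99 in shoots with estradiol and 6.08, 6.15 and 6.16 in shoots with DMSO. The organs did not overlap, and the difference was -0.39 (SE 0.09, limma adjusted p 0.00487).

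CHR40 and CHR42, known as CLSY4 and CLSY2, belong to the CLASSY proteins that bring polymerase IV to its targets. CHR40 had log2 levels of 4.41, 3.86 and 4.02 in roots with estradiol and 3.41 and 3.77 in roots with DMSO, against 4.54 and 4.21 in shoots with estradiol and 4.22, 4.48 and 4.50 in shoots with DMSO. One root array with estradiol lay within the shoot range, and the difference was -0.54 (SE 0.15, limma adjusted p 0.0128). CHR40 no longer passed without root DMSO replicate 1 or shoot estradiol replicate 1 (limma adjusted p up to 0.0573). CHR42 had a difference of -0.51 (SE 0.20) and did not pass (limma adjusted p 0.0660).

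CHR34, a further SNF2-type gene, had dim log2 levels of 2.21 to 2.75 in roots and 2.46 to 3.31 in shoots, with a difference of -0.43 (SE 0.15, limma adjusted p 0.0417). It no longer passed when any one of 7 arrays was left out (all but root estradiol replicate 1, shoot estradiol replicate 2 and shoot DMSO replicate 3), with an intensity trend or after quantile normalization, at limma adjusted p up to 0.208. CHR18 had 0.23 (SE 0.14) and did not pass (limma adjusted p 0.206). On 12 arrays the 7 differences ran from -0.34 to 0.37, none passed, and the smallest limma adjusted p, 0.0779, belonged to CHR17.

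The histone deacetylases HDA15, which represses chlorophyll genes in the dark, and HDA7 did not pass. HDA15 had log2 levels of 8.17 to 8.58 in roots and 8.27 to 8.43 in shoots, a difference of 0.11 (SE 0.10, limma adjusted p 0.389). HDA7 had 2.69 to 3.04 in roots and 2.51 to 3.40 in shoots, a difference of -0.20 (SE 0.14, limma adjusted p 0.285). The organs overlapped for both genes.

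Genes for histone H2B, 1 of the core histones, held the 2 smallest p-values among the 38 genes. HTB2 had log2 levels of 5.97, 5.70 and 5.50 in roots with estradiol and 5.49 and 5.78 in roots with DMSO, against 6.75 and 7.09 in shoots with estradiol and 6.69, 7.24 and 6.83 in shoots with DMSO. HTB1 had 5.61, 5.77 and 5.76 in roots with estradiol and 5.41 and 5.66 in roots with DMSO, against 6.57 and 6.76 in shoots with estradiol and 6.34, 6.77 and 6.57 in shoots with DMSO. For both genes every root array was below every shoot array. The differences were -1.24 (SE 0.15, limma adjusted p 0.000127) for HTB2 and -0.99 (SE 0.11, limma adjusted p 7.57e-05) for HTB1, root levels 0.423 and 0.504 times the shoot level.

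The other H2B genes did not pass. HTB4 had log2 levels of 6.98 to 7.62 in roots and 7.56 to 7.80 in shoots. Its difference was -0.32 (SE 0.14, limma adjusted p 0.0849), with an interval of -0.63 to -0.005. HTB11 had 3.13 to 3.49 in roots and 3.14 to 3.59 in shoots, with a difference of -0.05 (SE 0.10, limma adjusted p 0.696) and an interval of -0.28 to 0.18. The interval of HTB11 does not reach those of HTB1 (-1.24 to -0.73) and HTB2 (-1.59 to -0.90), although differences between genes were not tested. HTB11 was dim, with a mean log2 level of 3.37, and whether a gap like that of HTB1 would show there was not tested. H2B genes are near-identical in their coding parts, so a feature can hold signal from its relatives. On 12 arrays HTB2 had -0.77 and HTB1 -0.65, with limma adjusted p of 0.116 and 0.0851.

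**Figure D2:**
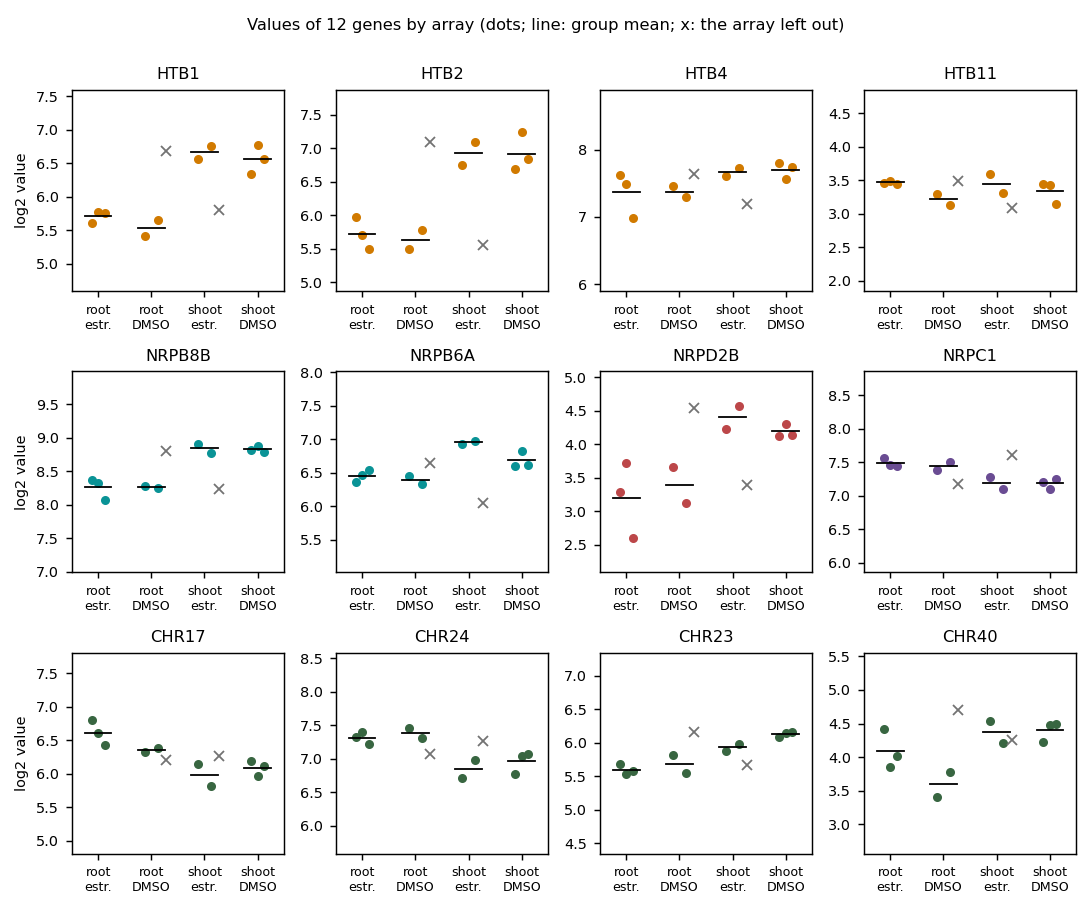
Log2 values (vertical axis, each panel spanning 3 log2 units) of 12 genes by group, with a dot per array, a line at the group mean and a cross for the array left out of its labelled group. HTB1, HTB2, NRPB8B, NRPB6A, NRPD2B and CHR23 sit lower in roots than in shoots on every array, NRPC1, CHR17 and CHR24 sit higher, and HTB4, HTB11 and CHR40 overlap.

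Cell division genes were compared beside the histones because core histones are made in quantity when DNA is copied. Only 5 genes of the longer S phase and mitosis list had a feature annotated to 1 gene, and the rest were not analysed. Of these 5 genes 3 were lower in roots (60%, against 26.1% of all features) and 2 did not pass, with a median difference of -0.68. So few genes do not stand for the list. The Aurora kinase genes AUR2 and AUR1, which act in mitosis, had -0.94 (SE 0.10) and -0.76 (SE 0.12), and PRL, a subunit of the MCM helicase, had -0.68 (SE 0.11). Limma adjusted p was 0.000720 or lower for these 3. ICU2, the catalytic subunit of DNA polymerase alpha, had -0.01 (SE 0.09), and TOPII, topoisomerase II, -0.22 (SE 0.09). The part of dividing cells in the HTB1 and HTB2 difference was not tested.

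Among the other histone genes HTR12, the centromeric H3, had -0.53 (SE 0.09, limma adjusted p 0.00123), the H1-related gene HON4 -0.41 (SE 0.10, limma adjusted p 0.00805), and the linker histone HIS1-3 0.52 (SE 0.29), which did not pass. Only part of the list of further remodelling factors, 8 genes, had a feature annotated to 1 gene. Of these 8 genes 5 did not pass and 3 were lower in roots (37.5%, against 26.1% of all features). They were SWC2, a subunit of the SWR1 complex that places H2A.Z, with -0.35 (SE 0.08, limma adjusted p 0.00561), the histone chaperone ASF1B with -0.33 (SE 0.09, limma adjusted p 0.0114) and BSH, a SWI/SNF subunit, with -0.29 (SE 0.09, limma adjusted p 0.0247).

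Only 2 genes of the list of general transcription and elongation factors had a feature annotated to 1 gene. AT2G34210, annotated as SPT5-1, was lower in roots at -0.68 (SE 0.21, limma adjusted p 0.0218). It was dim, with log2 levels of 2.29 to 3.14 in roots and 2.99 to 3.75 in shoots, which overlapped. AT5G08565, annotated as SPT4-1, had -0.09 (SE 0.11). RBL, related to a Trithorax-type subunit, was lower in roots at -0.30 (SE 0.08, limma adjusted p 0.0154), while ULT1 (-0.41, SE 0.16) and the demethylase LDL2 (0.11, SE 0.19) did not pass. The DNA demethylase DME was higher in roots at 0.45 (SE 0.08, limma adjusted p 0.00117). The list of other histone acetylation factors had no gene with a feature annotated to 1 gene. In every list, genes without such a feature were not analysed.

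The organ difference was also taken within each treatment, which shares no array with the other. Both tests used the same spread estimate per gene, taken from all 10 arrays, so they are not independent. With estradiol 2 of the 38 genes (5.26%) were higher in roots, against 19.5% of all features, and 6 (15.8%) were lower, against 19.8%. With DMSO 1 gene (2.63%) was higher in roots, against 19.3% of all features, and 5 (13.2%) were lower, against 19.9%. The sign was the same in both treatments for 35 of 38 genes (92.1%), against 82.9% of all features. Passing in both were HTB1, HTB2, NRPB8B and CHR24 (4 of 38, 10.5%, against 32.7% of all features).

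HTB2 had a root minus shoot difference of -1.20 with estradiol and -1.29 with DMSO, and HTB1 had -0.95 and -1.03. NRPB8B had -0.59 and -0.56, and CHR24 had 0.47 and 0.42. The 95% interval of the change between treatments was -0.78 to 0.61 for HTB2, -0.59 to 0.43 for HTB1, -0.38 to 0.43 for NRPB8B and -0.51 to 0.42 for CHR24, so equal differences are not shown. CHR17 had 0.63 with estradiol and 0.26 with DMSO, and CHR40 had -0.28 and -0.81, but neither gene passed the test of the difference between treatments described below.

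**Figure D3:**
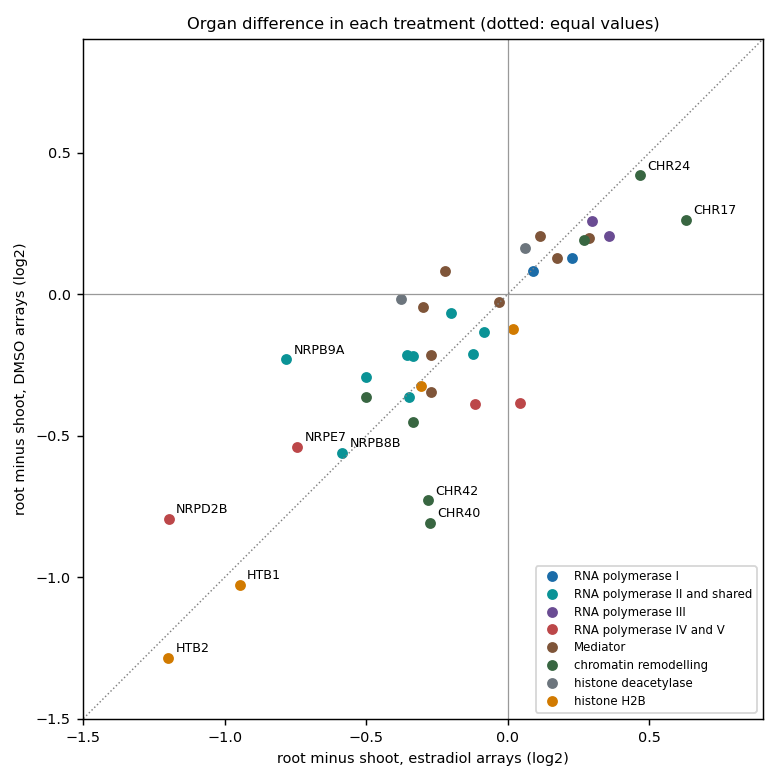
Root minus shoot difference of each gene on the log2 scale, from estradiol arrays (horizontal axis) and from DMSO arrays (vertical axis), with a point per gene coloured by family and a dotted line of equal values. HTB1, HTB2, NRPB8B and CHR24 lie close to the line, while CHR40 (-0.28 and -0.81) and NRPB9A (-0.78 and -0.23) lie away from it.

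Estradiol against DMSO gave no called change in any of these genes. In roots 0 of 38 passed in limma, against 0.0026% of all features (1 of 38408), and 1 had an unadjusted p under 0.05, which is 2.63% of the genes against 3.75% of all features. In shoots 0 of 38 passed, against 0% of all features, with 2 at an unadjusted p under 0.05 (5.26% against 8.14%). For the difference between the organs' responses 0 passed, against 0.0026% of all features, with 0 at an unadjusted p under 0.05. Estradiol and DMSO arrays did not overlap for 6 genes in roots (15.8%, against 21% of features) and for 7 in shoots (18.4%, against 21.6% of features), shares below those of all features. On 12 arrays 0 genes passed in either organ or for the difference, with 1 gene in roots and 1 in shoots at an unadjusted p under 0.05. The sign on 12 arrays was that on 10 arrays for 29 of 38 genes in roots, 22 in shoots and 28 for the difference.

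The intervals show what could have been seen. Differences between estradiol and DMSO ran from -0.47 to 0.51 in roots, with a median of -0.03, and from -0.51 to 0.50 in shoots, with a median of -0.002 (all features, -0.01 in both). The 95% interval of a gene reached 0.37 on either side in the median gene in each organ. For 37 of 38 genes in roots and 37 of 38 in shoots the whole interval lay within 1 log2 unit of 0. The exceptions were CHR42 in roots (-0.21 to 1.09) and NRPE3B in shoots (-1.01 to -0.01). Smaller changes are not shown to be absent.

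By family, uncalled estradiol differences in roots had a median of -0.10 for the 9 polymerase II and shared genes (8 of 9 below 0). The median was -0.10 for the 8 Mediator genes (7 of 8 below 0). It was 0.18 for the 7 remodelling genes (4 of 7 above 0) and 0.14 for the 4 H2B genes (3 of 4 above 0). Among all features 19914 of 38408 were below 0 in roots. All genes were compared with the same root DMSO arrays, so their signs are not independent and do not show a family response. With no array left out, 29 of 38 genes kept their root sign. In shoots the medians were 0.02, -0.02, -0.11 and 0.05 for the same families. NRPA1 and NRPA2 had 0.11 and -0.01 in roots, and NRPC1 and NRPC2 had 0.05 and 0.06.

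The increases with the smallest p in roots were CHR40, HTB11, CHR17 and CHR42. CHR40, the CLASSY gene CLSY4, had a difference of 0.51 (SE 0.21, unadjusted p 0.0374 in limma, adjusted p 0.999), from the values given above, with all 3 estradiol arrays over both DMSO arrays. CHR42, the CLASSY gene CLSY2, had log2 levels of 3.31, 3.39 and 3.70 with estradiol and 2.77 and 3.28 with DMSO, also without overlap, and a difference of 0.44 (SE 0.29). HTB11 had 0.25 (SE 0.14) and CHR17 0.26 (SE 0.16), again with no overlap in roots. None of the 4 passed (limma adjusted p 0.999 each), and in shoots CHR40 had -0.03, CHR17 -0.11 and HTB11 0.11.

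The decreases with the smallest p in roots were NRPB9A, MED21, NRPB9B and NRPB6B. NRPB9A had log2 levels of 3.78, 3.73 and 3.24 with estradiol and 3.82 and 4.29 with DMSO, a difference of -0.47 (SE 0.22). MED21, a middle Mediator subunit, had -0.25 (SE 0.16), NRPB9B -0.34 (SE 0.22) and NRPB6B -0.15 (SE 0.14). Each had a limma adjusted p of 0.999, and the 2 copies of the ninth subunit had -0.47 and -0.34 in roots but 0.08 and -0.43 in shoots.

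In shoots the increases with the smallest p were HDA7, NRPB6A, CHR34 and MED22B. HDA7 had log2 levels of 3.20 and 3.40 with estradiol and 2.51, 3.19 and 2.71 with DMSO, a difference of 0.50 (SE 0.20, unadjusted p 0.0374 in limma, adjusted p 0.577). NRPB6A had 0.27 (SE 0.12, limma adjusted p 0.633), with both estradiol arrays (6.94 and 6.98) over the 3 DMSO arrays. On 12 arrays NRPB6A had -0.03, with the array labelled shoot estradiol replicate 3 reading 6.05. CHR34 had 0.32 (SE 0.21) and MED22B 0.19 (SE 0.17), with adjusted p of 0.759 and 0.840 in limma.

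The decreases in shoots with the smallest p were NRPE3B, NRPB9B, CHR23 and MED32. NRPE3B had log2 levels of 2.99 and 3.03 with estradiol and 3.55, 3.21 and 3.79 with DMSO, a difference of -0.51 (SE 0.22, unadjusted p 0.0474 in limma, adjusted p 0.607). NRPB9B had 5.26 and 5.20 with estradiol and 5.76, 5.92 and 5.29 with DMSO, a difference of -0.43 (SE 0.22, limma adjusted p 0.667). CHR23 had -0.20 (SE 0.12) and MED32 -0.22 (SE 0.15), with adjusted p of 0.736 and 0.755. Estradiol arrays were all below DMSO arrays for NRPE3B, NRPB9B and CHR23.

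**Figure D4:**
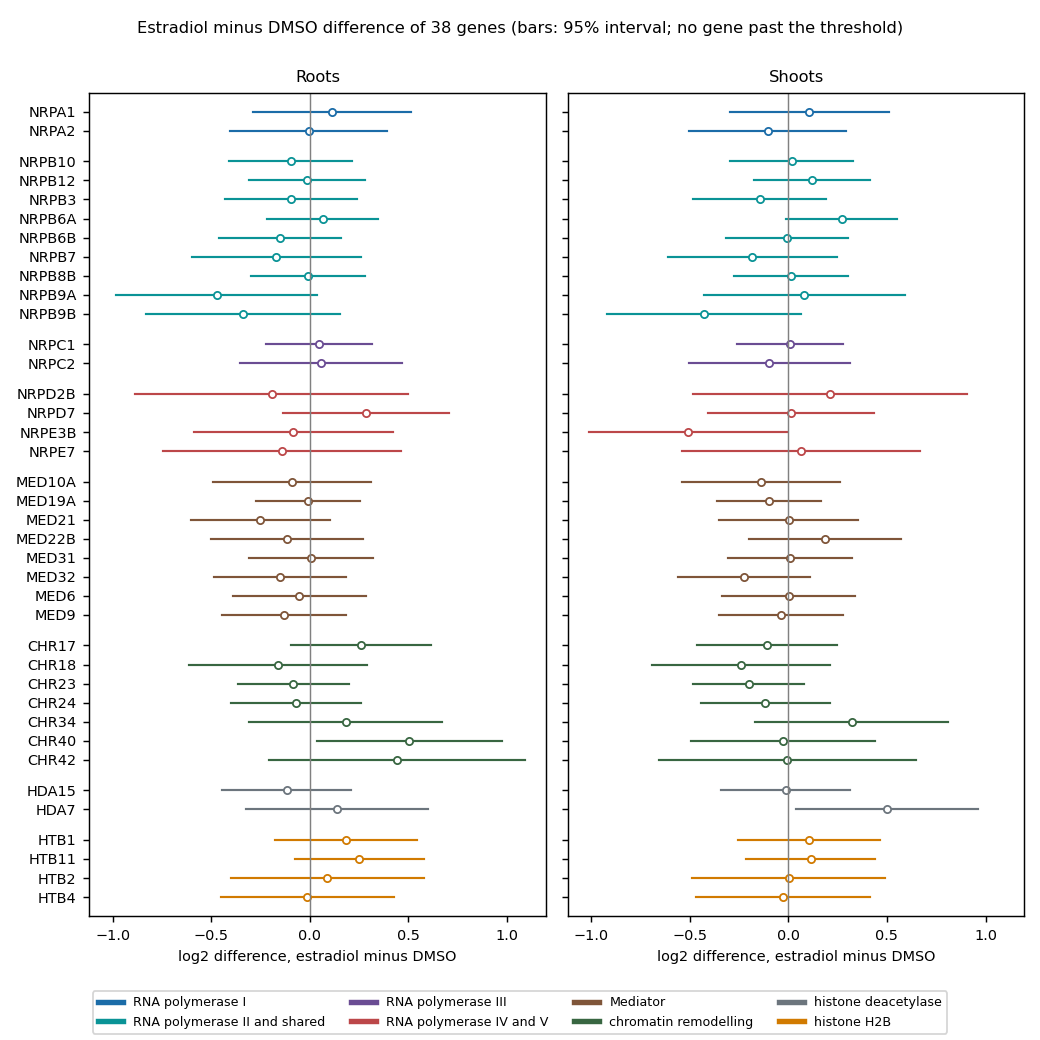
Estradiol minus DMSO difference of each gene on the log2 scale (horizontal axes) in roots (left) and shoots (right), one row per gene grouped by family, from 10 arrays. Points are limma estimates and bars 95% intervals; all points are open because no gene passed, and the estimates lie between -0.51 and 0.51.

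The responses of the organs were compared directly as the shoot response minus the root response. The smallest p-values belonged to CHR40 with -0.53 (SE 0.29), CHR17 with -0.37 (SE 0.22) and NRPE3B with -0.43 (SE 0.31) on the negative side. On the positive side they were NRPB9A with 0.55 (SE 0.32), MED22B with 0.30 (SE 0.24) and HDA7 with 0.36 (SE 0.29). All 6 had a limma adjusted p of 1.00, and their unadjusted p-values lay between 0.102 and 0.242. The HTB2 and HTB1 responses differed between organs by -0.09 and -0.08.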

How the data were processed

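Whole-transcript Affymetrix arrays measured RNA in 4 groups of 3, taken from the sample titles; the source-name field contradicts them on treatment and was not used. The deposited table holds 1 value for each of 38408 features. Expression Console 1.3 from Affymetrix made them, per the submitters' processing notes; its settings are unknown here. The deposited values (0.19 to 13.84) were read as log2 expression, a scale no label states.

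Gene names came from the array's platform annotation and were brought by gene ID to RefSeq assembly TAIR10.1: 16722 had 1 gene (16574 matched), 759 several, and 20927 are unnamed here. No level of CLE3 was analysed here. The 38 members and 9 gene lists (384 entries) were chosen with earlier results of these data known. Every member is named. Full values follow a written rule (small families whole, the largest called differences, level extremes, the smallest estradiol p-values, up to 3 genes per list), with values for the other members, ICU2 and TOPII added after their values were seen.

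Limma 3.58.1 (R 4.3.3; lmFit and eBayes) fitted group means on 10 arrays (two-sided; 6 residual degrees of freedom) and adjusted by Benjamini-Hochberg over all features, threshold 0.05. The fit was tested on simulated data. The small number of arrays limits precision, and no signal over background was given. Alternatives were all 12 arrays, a replicate block, an intensity trend, robust eBayes, array weights, quantile normalization, median centring, a group mean of at least 5, 1 feature per gene, 1 organ alone and leaving out each array. The planned mean over several features of a gene was not run because each member had 1 feature, and the planned promoter motif search was not run because no promoter sequences were used here.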

Additional observations from a re-analysis of the deposited data

How the results depend on the processing

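Of the 17 genes called between organs, 8 (HTB1, HTB2, NRPB8B, NRPB6A, NRPD2B, CHR17, CHR23 and CHR24) passed in every alternative on the 10 arrays in which they were fitted, and 9 were lost in at least 1. Of the 21 others, 5 passed in at least 1 of 18: NRPB7 in 8, CHR42 in 4 (also without shoot estradiol replicate 1 or shoot DMSO replicate 2), MED6 in 3 (also without shoot DMSO replicate 3), HTB4 in 1 (without root estradiol replicate 1) and NRPD7 in 1 (without root DMSO replicate 2). With all 12 arrays 0 features passed between organs, so 0 genes higher and 0 lower in roots, and 0 features passed for estradiol in roots and for the difference between responses. The 12-array fit holds an array with the profile of the other organ in 2 groups. A replicate block gave 3 genes higher and 13 lower in roots, 0 features for estradiol in roots and 0 for the difference. Same-numbered arrays correlated at -0.02 to 0.12 in their deviations from group means (median 0.05, over 0.1 in 1 of 13 pairs). Arrays with different numbers had a median of -0.03. Deviations in a group of 2 arrays mirror each other, so these values are not independent. The main fit did not take the numbers as pairs, and whether they mark pairs is not known. The block changed 1 call among the named genes, that of MED19A. Fitting 1 feature per gene gave 9579 features between organs, 0 for estradiol in roots and 0 for the difference, with fewer features tested. Leaving out 1 array at a time gave 16913 to 19025 features between organs, 3 to 4 genes higher and 8 to 14 lower in roots, with 8 lower without root DMSO replicate 1 and without shoot estradiol replicate 2. The same omissions gave 0 to 1 features for estradiol in roots, 0 to 4 in shoots and 0 to 23 for the difference, and 0 of the 38 genes throughout. Between organs signs turned for HTB11 (0.0514 on 12 arrays, 0.0316 after quantile normalization, and -0.125 to 0.0198 over single omissions, above 0 without shoot estradiol replicate 1), MED31 (0.00238 on 12 arrays, and -0.0824 to 0.0258 over single omissions, above 0 without shoot DMSO replicate 1, root DMSO replicate 2 or shoot estradiol replicate 2) and MED22B (-0.140 to 0.00187 over single omissions, above 0 without shoot estradiol replicate 2). With estradiol in shoots NRPB6A turned (-0.0315 on 12 arrays), and on 12 arrays 22 of 38 genes had the same sign as on 10 in shoots, 29 in roots and 28 for the difference. The cause was not tested. Among called features 47.9% were higher in roots, and 53.4% after quantile normalization. At most 3 arrays a group limit what small differences could be seen, and 9 of the 38 genes were dim (mean under 4).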

Other observations

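The 2 arrays left out gave values for the 17 genes called between organs. Both were left out because their whole profile lay with the other organ, and the 17 genes were picked for differing between organs. The counts below therefore follow from those choices and are no separate support for the calls. The array labelled root DMSO replicate 3 read nearer to the shoot mean than to the root mean for 17 of 17, inside the shoot range for 12 and inside the root range for 1. The array labelled shoot estradiol replicate 3 read nearer to the root mean for 13 of 17, inside the root range for 12 and inside the shoot range for 4. HTB2 read 7.09 on the array labelled root DMSO replicate 3, and 5.55 on the array labelled shoot estradiol replicate 3. HTB1 read 6.69 and 5.81 on the same arrays, and NRPB8B 8.79 and 8.24.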
